A study of Mus musculus with 13 samples.

Results

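The complement genes followed here were C1qa, C1qb and C1qc, which encode the A, B and C chains of C1q, C3, which encodes the central component of the cascade, and C3ar1, which encodes the receptor for the C3a fragment. They are 5 of the 17280 genes of the study's filtered count table, and all 5 were present in the count table of each of the 13 plates. They were chosen by name and not by a rule on their values, with earlier results of these data known. The study asked how microglia respond to high-fat diet (HFD). For this, microglia of male wild type C57BL/6J mice were sorted as single CD45lo, CD11b+ cells into 13 plates of 192 wells and sequenced by CEL-Seq2, a method that counts the 3′ ends of transcripts and marks each molecule with a unique molecular identifier (UMI). The labels name the tissue as brain with 4 dissected regions, the study's methods name the hypothalamus, and the brain region of a well is not given in the table of wells. The ages of the mice are not given there either.

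Control mice received standard chow (normal chow, NC), and the other mice received HFD with 60% fat. The table of wells gives the length of HFD as 1 day, 3 days, 1 week, 4 weeks, 9 weeks or 16 weeks, although the sample labels name 3 days alone. Cells were kept when they held at least 1500 transcripts, which left 1617 of 2496 wells, namely 722 NC cells, 161 cells after 1 day, 121 after 3 days, 172 after 1 week, 128 after 4 weeks, 82 after 9 weeks and 231 after 16 weeks. For tests, cells of 1 replicate identifier, 1 length and 1 plate were summed when at least 5 were present, which gave 68 sums (28 of NC and 5 to 10 of each HFD length) with totals from 22768 to 219146 transcripts. An identifier need not be 1 mouse, and several identifiers lie on more than 1 plate, so p-values measure the spread between these sums.

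The cells carried the transcripts of microglia. At least 3 UMIs of the microglia markers (Cx3cr1, P2ry12, Tmem119 and others) were found in 1613 of 1617 cells, with a median of 84 UMIs per cell. At least 3 UMIs of markers of another cell type were found in 87 cells, of which 48 carried oligodendrocyte, 19 border-associated macrophage and 15 monocyte markers. The share of such cells ran from 1.86% after 1 day to 11.6% after 3 days of HFD. All 192 well barcodes were shared by the 13 plates by design, and 0 cells had identical counts.

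C1q is the recognition molecule of the classical complement pathway: it binds antibody complexes, dying cells and other surfaces and starts the cleavage of C3. In the brain it is made mainly by microglia, and in development C1q and C3 tag synapses that microglia then engulf. C3a, a small fragment released when C3 is cleaved, signals through the receptor C3AR1, which myeloid cells carry.

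The 3 C1q genes lie next to each other on the minus strand of chromosome 4. In GRCm38 (GENCODE M21), C1qb (ENSMUSG00000036905.8) is at chr4:136880129-136886187, C1qc (ENSMUSG00000036896.5) at chr4:136889804-136893065 and C1qa (ENSMUSG00000036887.5) at chr4:136895917-136898803. They span 18675 bases that hold these 3 genes alone, with 3616 bases between C1qb and C1qc and 2851 bases between C1qc and C1qa. C3 (ENSMUSG00000024164.15) is at chr17:57203970-57228136 and C3ar1 (ENSMUSG00000040552.8) at chr6:122847138-122856161, both on the minus strand as well. The stretches upstream of C1qb and C1qc are shown because the C1q genes varied together between cells. The letters come from RefSeq (GRCm38.p6), where promoters of 4 of the 5 genes were matched, and run 5′ to 3′ on the minus strand, with GAGGAA or its reverse complement TTCCTC in capitals. GAGGAA is a core that the myeloid factor PU.1 can bind.
C1qb, chr4:136886201-136886450: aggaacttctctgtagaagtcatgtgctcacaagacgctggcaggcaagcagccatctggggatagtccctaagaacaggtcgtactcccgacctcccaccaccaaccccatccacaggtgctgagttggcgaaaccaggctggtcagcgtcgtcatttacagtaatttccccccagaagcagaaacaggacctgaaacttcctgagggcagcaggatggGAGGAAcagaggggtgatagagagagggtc
C1qc, chr4:136893066-136893164: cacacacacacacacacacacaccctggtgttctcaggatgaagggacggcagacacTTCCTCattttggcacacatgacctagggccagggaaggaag
Of C1qc only the 99 bases outside the annotated transcripts are printed. The match was searched in the full 250 bases before the RefSeq start of each matched gene. There C1qb and C1qc each held 1 match on 1 strand or the other, and C3 and C3ar1 held 0. C1qa had no matched promoter and was not searched. Of 32851 promoters of that length, 7639 (23.3%) held the letters, so a match is common and describes the letters alone.

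All 3 C1q genes were among the most abundant transcripts of these cells. Each cell was thinned to 1500 UMIs so that cells of different depth could be compared. C1qb had a mean of 7.55 UMIs per thinned cell and ranked 11 among 17280 genes, C1qc had 7.06 and ranked 13, and C1qa had 4.04 and ranked 28. Together they made up 1.24% of all transcripts. C3ar1 was far lower, with 0.473 UMIs per thinned cell and rank 408, and C3 was nearly absent, with 0.00804 UMIs and rank 11067. These levels are transcript counts from 3′ ends, so transcript length does not enter them.

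Nearly every cell held C1q transcripts. After thinning, a UMI of C1qb was found in 99.3% of cells, of C1qc in 98.8% and of C1qa in 92.0%, against 99.6%, 99.6% and 95.1% without thinning. C3ar1 was found in 34.2% of thinned cells and in 51.6% without thinning, and C3 in 0.618% and 1.24%. Near-empty wells held some of these transcripts too, from a source that was not tested: in 175 wells with under 100 transcripts (median 49.0, against 2840 in the cells kept), C1qb was found in 37.1%, C1qc in 21.1%, C1qa in 6.29% and C3ar1 in 1.71%. The summed C1q count had a median of 18 UMIs per thinned cell, with 8 at the 5th and 31 at the 95th percentile.

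The C1q level did not pass the test for a difference between any HFD length and NC. Levels are given as counts per 1000000 transcripts (CPM) of each sum, as the lowest, the median and the highest value. C1qb was the highest of the 3 over all cells, although its 1-day median lay below the 5013 of C1qc. It had 3741, 5246 and 6117 in NC and 3740, 4454 and 5325 after 1 day of HFD. After 3 days it had 4882, 5796 and 6424, and after 1 week 4808, 5277 and 7650. It had 4146, 4915 and 5959 after 4 weeks, 4198, 5454 and 6599 after 9 weeks and 4612, 5378 and 6364 after 16 weeks. The range of each HFD length overlapped that of NC, and in the order of the medians each lay within the range of its neighbours. The 3-day median lay above every 1-day sum, but these lengths lay on different plates.

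C1qc, the chain C gene, had 3867, 4919 and 6637 CPM in NC. Its lowest, median and highest values were 4400, 5013 and 5715 after 1 day, 4139, 5201 and 6442 after 3 days and 4560, 5242 and 5851 after 1 week. They were 3519, 4606 and 5671 after 4 weeks, 3051, 5055 and 6232 after 9 weeks and 4313, 4975 and 5593 after 16 weeks. Again every HFD length overlapped NC, and the median of 4 weeks was the lowest of the 7.

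C1qa, the chain A gene, varied most of the 3. It had 1044, 2667 and 3847 CPM in NC, 2687, 3512 and 3849 after 1 day, 2603, 3094 and 3397 after 3 days and 1941, 3019 and 4090 after 1 week. It had 1977, 2855 and 4608 after 4 weeks, 616, 2680 and 3606 after 9 weeks and 1018, 2481 and 3250 after 16 weeks. Its medians ran in the order of HFD length from 1 day down to 16 weeks with NC next to last, but the lengths lay on different sets of plates, and the SD of C1qa between plates (0.38 on the log2 scale, 13 plates) was larger than within a plate and length (0.25). Without plate 12, an alternative added after the values were seen, the SD between plates was 0.18 (0.25 within a plate and length with all plates). For C1qb the SDs were 0.15 between and 0.14 within plates, and for C1qc 0.15 and 0.16.

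**Figure D1:**
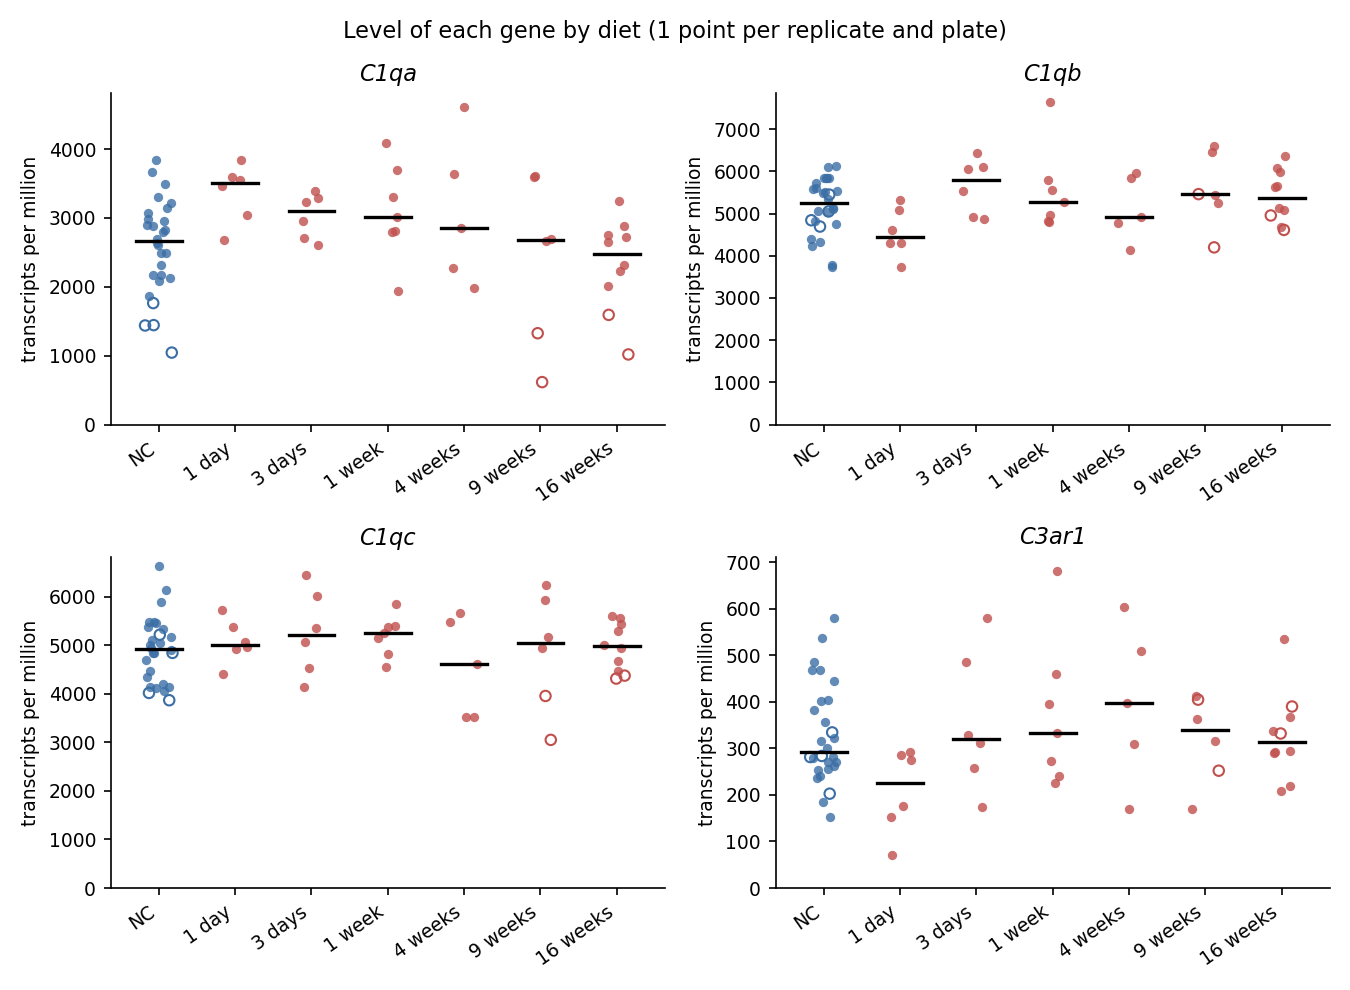
Level of C1qa, C1qb, C1qc and C3ar1 in CPM (linear axis from 0) against length of HFD, with 1 point for each of 68 sums of 1 replicate, length and plate. NC is blue, HFD is red, open circles are plate 12 and black lines are medians. The groups overlap for each gene, and the lowest C1qa points, from 616 to 1764, are those of plate 12.

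Lengths were compared with NC within plates by edgeR's quasi-likelihood test with the plate as a term and Benjamini-Hochberg adjustment over the 2336 genes that passed the filter on low counts. C1qa, C1qb, C1qc and C3ar1 passed that filter and C3 did not. At an adjusted p under 0.05, 0 of the 4 tested members were called at any length, and the share of all genes called was 0% at each length. At an unadjusted p under 0.05, 1 of the 4 members was found at 1 day and 0 at the other lengths, where 114 genes (4.88%) were found at 1 day, 109 (4.67%) at 3 days, 98 (4.2%) at 1 week, 96 (4.11%) at 4 weeks, 148 (6.34%) at 9 weeks and 111 (4.75%) at 16 weeks. DESeq2 found 109 (4.67%), 93 (3.98%), 93 (3.98%), 94 (4.02%), 143 (6.12%) and 115 (4.92%) genes at the unadjusted threshold, and after adjustment 1 gene at 9 weeks and 0 at the other lengths. Lengths on the same plates shared their NC cells (3 days, 1 week and 4 weeks on plate 4, 9 and 16 weeks on plates 10 to 12, and 3 days, 1 week and 16 weeks on plate 13), so these lengths are not independent of each other, while the NC cells of the 1-day plates 6 and 8 lay on no plate of another length.

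For C1qb, log2 fold changes of HFD against NC lay between -0.08 (SE 0.12) at 4 weeks and 0.06 (SE 0.09) at 9 weeks. The 95% interval at 16 weeks, the length with most sums, was -0.16 to 0.13 on the log2 scale (a fall of 10.3% to a rise of 9.81%). These 10 sums come from 5 replicate identifiers, and with the linked plates of each identifier summed the interval was wider, from -0.22 to 0.18 (-14.0% to 13.4%). For C1qc, log2 fold changes lay between -0.15 (SE 0.13) at 4 weeks and 0.08 (SE 0.12) at 1 day, and the interval at 16 weeks was -0.15 to 0.17, or -0.22 to 0.19 over linked plates. These intervals do not show that the diets were alike.

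C1qc at 4 weeks was lower than the NC mean of its own plate in 3 of 3 sums. On plate 1 the HFD sum had 3526 and the NC sum 4053 CPM, and on plate 4 the HFD sums had 3519 and 4606 and the NC sum 6637. The NC sum of plate 4 held 7 cells and was the highest C1qc value of all NC sums. The log2 fold change of -0.15 did not pass the test (edgeR adjusted p = 0.997, p = 0.246). With 1 fit per length on the plates that held both groups it was -0.45 (adjusted p = 1.00, p = 0.0850), and over the other alternatives, replicates left out included, it ran from -0.21 to -0.035.

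For C1qa, log2 fold changes were 0.05 (SE 0.14) at 1 day, 0.19 (SE 0.15) at 3 days, 0.22 (SE 0.14) at 1 week, 0.11 (SE 0.16) at 4 weeks, 0.01 (SE 0.13) at 9 weeks and -0.08 (SE 0.10) at 16 weeks. The smallest adjusted p of these by edgeR was 0.982. These values moved with the processing. With 1 replicate left out, C1qa ran from -0.22 to 0.23 at 9 weeks and reached 0.026 at 16 weeks. At 1 day C1qa had 0.37 without the plate term (p = 0.0431). With the linked plates of each identifier summed, it had 0.28 at 3 days (95% interval 0.01 to 0.55, edgeR p = 0.0388). At 1 week it had 0.31 with linked plates (0.05 to 0.56, edgeR p = 0.0205) and 0.36 without plates 4 and 5 (edgeR p = 0.0445). Without the filter on low counts it had 0.44 at 3 days, where the median of all genes moved to 0.22 as well. At 4 weeks the direction was not stable, with 0.27 without the plate term, -0.33 without plates 4 and 5 and -0.09 with 1 fit per length. None of these passed after adjustment (edgeR adjusted p from 0.595 to 1). At 3 days the HFD sums of plate 4 had 2962 and 3397 CPM against 2313 in NC, and those of plate 13 had 2603 and 2704 against NC sums from 2128 to 2613. All 4 lay above the NC mean of their plate, but on plate 13 the groups overlapped. At 1 week, the C1qa difference was largest on plate 7, where the single HFD sum had 4090 and the single NC sum 1869 CPM. Without either of these replicates the log2 fold change at 1 week was 0.04 in place of 0.22.

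The NC sum of plate 7 also held the cells with least C1q. After thinning, 4 of 1617 cells were without a C1q UMI (2 without thinning). These 4 were all NC cells of plate 7 and replicate M1, and each had 1 or 2 UMIs of microglia markers, against the median of 84. Of these cells, 1 carried 6 UMIs of monocyte markers. Leaving out the 4 cells with under 3 microglia-marker UMIs, an alternative added after the values were seen, the C1qa log2 fold change at 1 week was 0.19. Under 5 summed C1q UMIs after thinning were found in 20 cells.

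**Figure D2:**
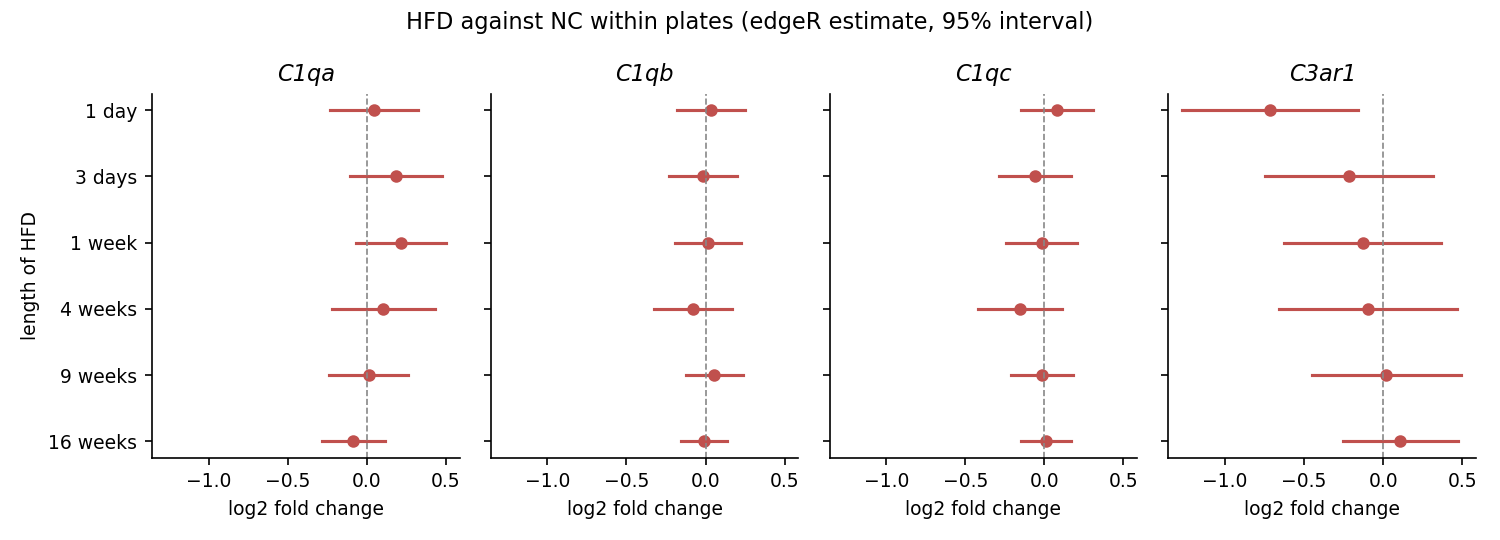
Log2 fold change of HFD against NC with its 95% interval (edgeR, plate as a term) for C1qa, C1qb, C1qc and C3ar1 at each length of HFD. Every interval includes 0 except that of C3ar1 at 1 day, which runs from -1.27 to -0.16 and did not pass after adjustment (adjusted p = 0.762).

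C3ar1 had its lowest median after 1 day of HFD, where the lowest, median and highest values were 71.1, 225 and 293 CPM, against 153, 292 and 580 in NC. The other lengths had medians from 313 at 16 weeks to 398 at 4 weeks, and all overlapped NC. On plate 6 the HFD sums of 1 day had 71.1, 153 and 286 and the NC sums 153, 468 and 469. On plate 8 the HFD sums had 175, 276 and 293 and the NC sums 270, 322 and 383. All 6 HFD sums lay below the NC mean of their own plate, and on both plates the highest HFD sum lay above the lowest NC sum.

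The log2 fold change of C3ar1 at 1 day was -0.71 (SE 0.28, 95% interval -1.27 to -0.16), with p = 0.0123 and adjusted p = 0.762 by edgeR, so it did not pass the test over 2336 genes. It ranked 37 of 2336 by p, where 114 genes (4.88%) had p under 0.05. Over the alternatives the log2 fold change ran from -0.85 to -0.52 and the adjusted p from 0.583 to 1. The share of thinned cells with a C3ar1 UMI was 22.5% in HFD and 37.4% in NC, a difference of -14.9 points (exact two-sided permutation test over 400 assignments, p = 0.06, adjusted over the 6 lengths p = 0.36). Markers of other cell types were found in 1.86% of the 1-day cells and 3.74% of all NC cells, and without cells carrying them the difference in share had p = 0.04 in the exact permutation test (adjusted p = 0.24).

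At the later lengths C3ar1 showed no common direction. Its log2 fold changes were -0.22 (SE 0.27) at 3 days, -0.13 (SE 0.25) at 1 week, -0.10 (SE 0.28) at 4 weeks, 0.02 (SE 0.24) at 9 weeks and 0.11 (SE 0.18) at 16 weeks. At 3 days the value rested on the choice of plates, since it was -0.64 without plates 4 and 5. On plate 13 the 3-day sums had a mean of 216 CPM against 432 in NC, and on plate 4 the means were 399 and 402. C3ar1 spread widely between sums (SD 0.58 on the log2 scale within a plate and length, against 0.14 for C1qb). When the 6 lengths were tested together by edgeR, C3ar1 had p = 0.275 and adjusted p = 0.983, and C1qa, C1qb and C1qc had p = 0.670, 0.972 and 0.906 with adjusted p = 0.994 each. In this joint test 0 genes (0%) were called and 133 (5.69%) had an unadjusted p under 0.05.

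The share of cells with a UMI had an adjusted p over 0.05 for each member and length, but the design left little room for another outcome. Only 6 of the 30 tests could give an unadjusted p under 0.05, namely C1qa at 1 and 16 weeks and C3ar1 at 1 day, 3 days, 1 week and 16 weeks, and the others say nothing either way. C1qb and C1qc were found in 97.6% to 100% of thinned cells at every length, which leaves little room for a difference. C1qa differed by -8.48 points at 16 weeks (86.1% in HFD, 92.9% in NC as means over replicates, difference taken within plates; exact permutation p = 0.153) and by 8.41 points at 1 week (exact permutation p = 0.5). The smallest adjusted p over the 5 genes and 6 lengths was 0.36, for C3ar1 at 1 day.

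C1qa was lower on plate 12 than on the other plates. The same 8 replicates (4 NC, 2 of 9 weeks and 2 of 16 weeks) were sorted on plates 10, 11 and 12, so that plates can be compared over the same replicates. In NC, replicate M1 had 2638 CPM of C1qa on plate 10, 2884 on plate 11 and 1438 on plate 12, M2 had 2492, 2795 and 1044, M3 had 2823, 2956 and 1764, and M4 had 3216, 2168 and 1444. After 9 weeks, M7 had 2662, 2697 and 616 and M8 had 3606, 3599 and 1326. After 16 weeks, M5 had 2750, 2885 and 1018 and M6 had 2311, 3250 and 1592. Plate 12 was the lowest of the 3 plates for all 8 replicates, NC and HFD alike, and its range did not overlap those of the other 2 plates. For C1qb and for C1qc, plate 12 was the lowest in 7 of the 8 replicates.

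This comparison was chosen after the values were seen. In an edgeR fit of plate 12 against plates 10 and 11 with the replicate as a term, C1qa fell by 1.17 on the log2 scale (SE 0.11, adjusted p = 5.90e-13), where 107 of 998 genes tested (10.7%) were called in either direction and 54 (5.41%) were lower. C1qc fell by 0.35 (SE 0.10, adjusted p = 0.0130), and C1qb had -0.23 (adjusted p = 0.0948) and C3ar1 -0.05 (adjusted p = 0.893). Plate 11 against plate 10 gave 4 of 1163 genes (0.344%), and C1qa had a log2 fold change of -0.09 (adjusted p = 0.894). By log2 fold change C1qa ranked 5 of 998 on plate 12. Among the other genes with the smallest p there, Gm42418, an rRNA-like predicted gene, had -2.82, the mitochondrial rRNA gene mt-Rnr1 had -1.22 and the lysosomal membrane gene Laptm5 had -0.67, while the ribosomal protein genes Rplp1 and Rps12 had 0.94 and 0.87. What made plate 12 differ was not tested.

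The share of chain A within C1q was lowest on plate 12 as well. C1qa made up a mean of 12.1% of summed C1q transcripts on plate 12 (7.83% to 14.7% over 8 sums), 20.7% on plate 10 and 20.4% on plate 11, and the highest mean was 26.8% on plate 6. C1qa was found in 67.4% of the thinned cells of plate 12 and C1qb in 99.3%. Without plate 12, an alternative added after the values were seen, the C1qa log2 fold change at 9 weeks was 0.19 in place of 0.01 and that of C1qc was 0.14 in place of -0.01, and neither passed the test (edgeR adjusted p = 0.905 and 0.920).

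**Figure D3:**
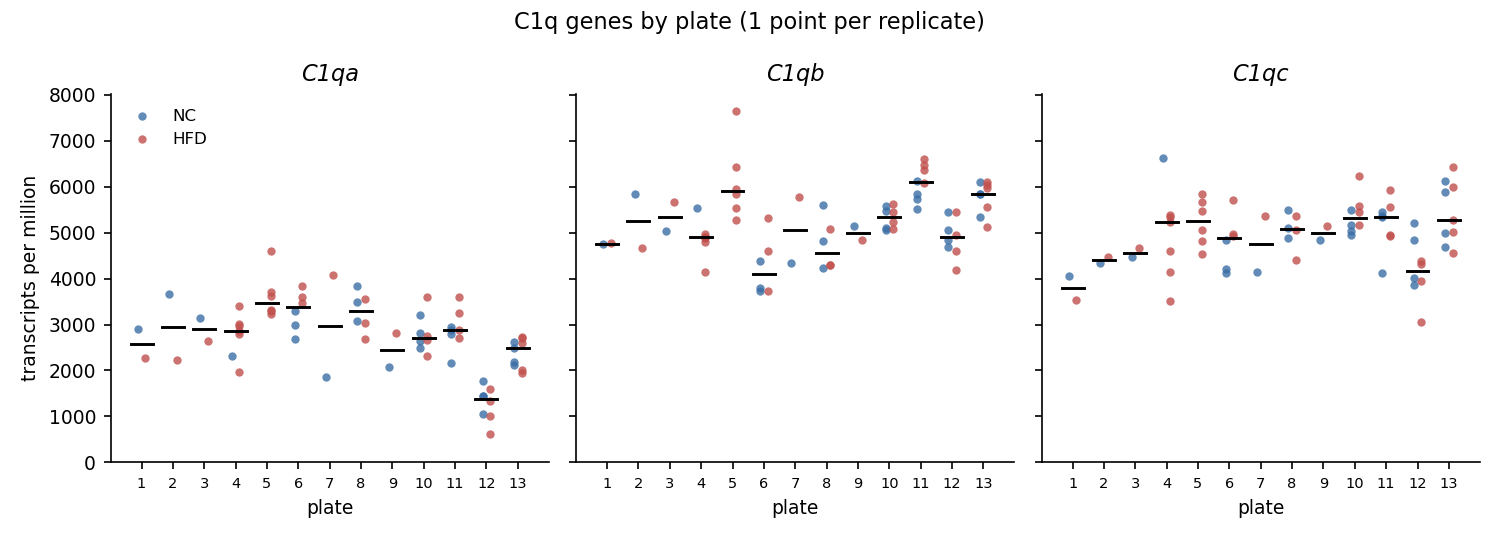
Level of C1qa, C1qb and C1qc in CPM (linear axis from 0) on each of the 13 plates, with 1 point per sum (NC blue, HFD red) and black lines at the plate medians. C1qa on plate 12 has a median of 1382, against 2706 on plate 10 and 2884 on plate 11. The C1qb and C1qc points of plate 12 overlap those of plate 10, although 7 of 8 replicates of each gene were lowest on plate 12 among plates 10 to 12.

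C3 was found in 20 cells with 45 UMIs in all, too few for the fit across genes. NC held 5 of these cells with 1 UMI each, and over all lengths 12 of the 20 cells had 1 UMI. The remaining UMIs were gathered in few places. Replicate L4 (16 weeks of HFD) on plate 3 held 9 cells with 19 UMIs, 1 to 4 per cell, which is 13.4% of its 67 cells (95% exact binomial interval 6.33% to 24.0%, counting error only). The same replicate on plate 2 held C3 in 0 of 66 cells, which allows a share of cells with a C3 UMI of up to 4.55% by 3 counts of the total, or 5.44% by the exact binomial interval. The 66 NC cells of plate 3 also held 0, with the same limit.

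The C3-positive cells of L4 carried microglial transcripts. Each had at least 15 summed C1q UMIs and from 37 to 156 UMIs of microglia markers, and together they had 1 UMI of neutrophil markers and 0 of monocyte markers. The other place was a single 4-week cell of replicate M21 on plate 5 with 15 C3 UMIs, 867 UMIs of neutrophil markers (S100a8, S100a9 and others) and 13 of microglia markers. The highest C3 count thus came from a cell with neutrophil markers. After thinning, the share of cells with C3 lay between -1.54 and 1.10 points of NC at all lengths, and its permutation test could not pass at any of them. Without thinning, C3 was found in 4.76% of cells at 16 weeks and 0.693% of NC cells. Of the 11 such cells at 16 weeks, 9 were those of L4 on plate 3. The difference within plates was 3.46 points (exact permutation p = 0.233, adjusted p = 1). No thinned cell held a C3 UMI at 1 day, 3 days, 1 week or 9 weeks, which allows shares of up to 1.74% at 1 week and up to 3.66% at 9 weeks.

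The other complement genes did not pass the test at any length of HFD either. Of 48 further genes of the cascade, its regulators and its receptors, 28 were in the tables and 6 passed the filter, among them the membrane regulator Cr1l, the 2 chains of complement receptor 3 (Itgam and Itgb2), and Lrp1 and Calr, which take part in the uptake of C1q-bound material. NC medians were 877 CPM for Itgam, 552 for Lrp1, 561 for Calr, 540 for Itgb2 and 171 for Cr1l. By edgeR, 0 of 6 were called higher and 0 lower at each length, beside 0% of all genes. Their median log2 fold change lay between -0.05 at 4 weeks and 0.03 at 1 week, and that of all genes between -0.01 and 0.01. At an unadjusted p under 0.05, 1 of the 6 was found at 1 day, 1 at 3 days and 1 at 4 weeks, beside 4.88%, 4.67% and 4.11% of all genes. The receptors for C5a, C5ar1 and C5ar2, were in the tables but under the filter.

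Between single cells, the levels of the 3 C1q genes varied together. The Pearson correlation over 1617 cells of log2(thinned UMIs + 1), centred per plate and length, was 0.25 for C1qa and C1qb, 0.25 for C1qa and C1qc and 0.27 for C1qb and C1qc. These are descriptions, since cells of 1 plate share a library and each cell's UMIs add up to 1500. Cells with 0 to 4 C1qb UMIs had a mean of 5.85 C1qc UMIs (346 cells), those with 5 to 7 had 6.68 (517 cells), those with 8 to 10 had 7.52 (448 cells) and those with 11 or more had 8.41 (306 cells). Mean C1qc was thus higher in each step of C1qb than in the step before, with SDs between cells of 2.89 to 3.82 UMIs.

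**Figure D4:**
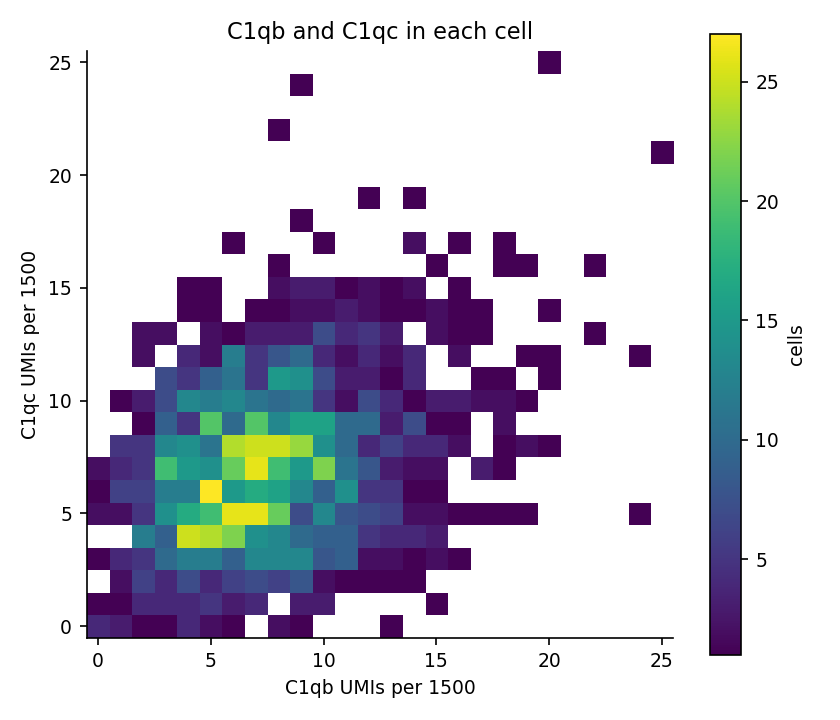
Number of cells (colour) with each count of C1qb UMIs (horizontal axis) and C1qc UMIs (vertical axis) after thinning to 1500 UMIs, over 1617 cells. The cells form a single cloud, and mean C1qc goes from 5.85 UMIs in cells with 0 to 4 C1qb UMIs to 8.41 in cells with 11 or more.

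Counting noise lowers such correlations, because each gene is seen through few UMIs. Corrected for it (covariance divided by the spread beyond Poisson counting), the correlations were 0.70 for C1qa and C1qb and 0.75 for both pairs with C1qc. For comparison, the 28 pairs among 8 other microglial genes (Cst3, Ctss, Cx3cr1, P2ry12, Tmem119, Ctsd and Selplg among them) had Pearson correlations from 0.05 to 0.42 with a median of 0.20, and corrected values from 0.06 to 0.56 with a median of 0.36. So the C1q pairs lay inside the range of the reference pairs before the correction and above it after the correction. With C3ar1 the C1q genes had Pearson correlations of 0.04 to 0.06 and corrected values of 0.19 to 0.24. Among the 630 pairs of the 36 genes with a mean of at least 3 thinned UMIs, C1qb and C1qc ranked 49, C1qa and C1qc 60 and C1qa and C1qb 61 by Pearson correlation, and 10, 11 and 17 by corrected value. Higher corrected values were held by pairs of mitochondrial genes (0.88 for mt-Nd2 and mt-Nd4) and by Gm10717 and Gm21738 (0.92), so values of this size were not particular to C1q.

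**Figure D5:**
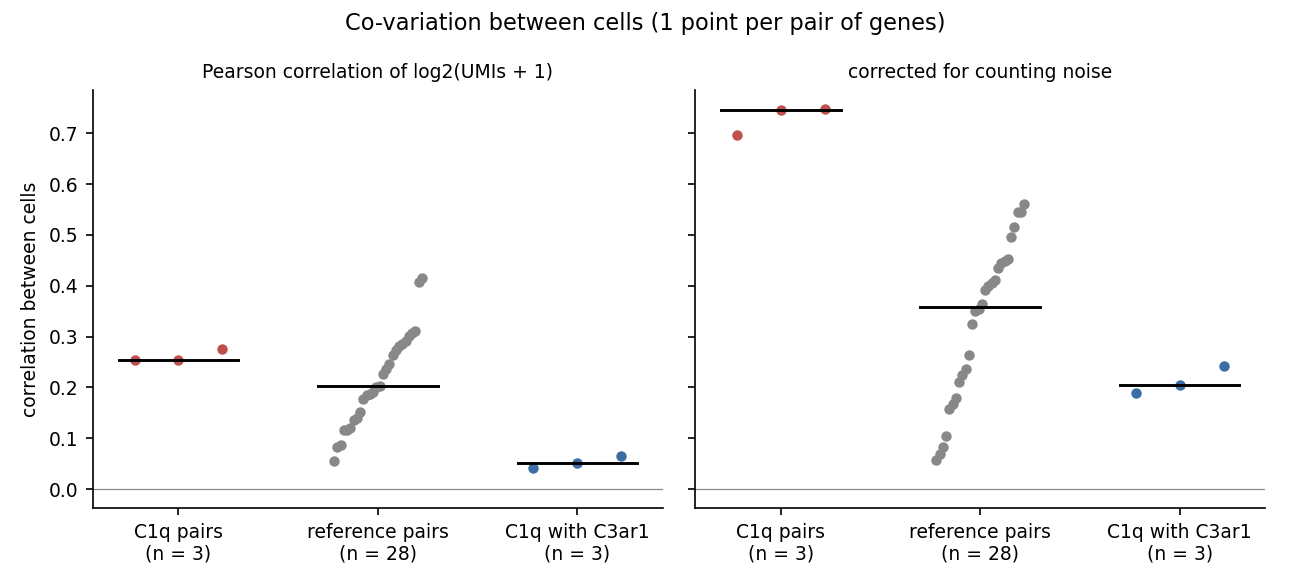
Correlation between 1617 cells, with 1 point per pair of genes and black lines at the medians, for the 3 C1q pairs, the 28 reference pairs and C1q with C3ar1, as Pearson correlation of log2(UMIs + 1) on the left and corrected for counting noise on the right. The C1q pairs lie at 0.25 to 0.27 on the left, within the reference pairs, and at 0.70 to 0.75 on the right, above the highest reference pair at 0.56.

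The correlation was positive in each plate and each length but varied in size. By length, it ran from 0.10 (16 weeks) to 0.43 (9 weeks) for C1qa and C1qb, from 0.09 (1 day) to 0.40 (1 week) for C1qa and C1qc, and from 0.15 (1 day) to 0.46 (4 weeks) for C1qb and C1qc. By plate, the ranges were 0.01 to 0.52, 0.03 to 0.46 and 0.13 to 0.56. Plate 13 had the lowest value for both pairs with C1qa. Plate 7, which held the 4 cells without a C1q UMI after thinning, had the highest value for all 3 pairs. Within single lengths and plates the noise correction gave values over 1 for some pairs, so it is given for all cells alone.

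Spread between cells beyond counting noise was smallest for C1qc, with a coefficient of variation of 27.1%, and was 31.3% for C1qb, 36.5% for C1qa and 72.3% for C3ar1. Outside complement, the 5 genes whose pattern between cells was most like that of C1q, among 1058 genes found in at least 20% of thinned cells, included Cst3 with a mean correlation of 0.31, Ctsd with 0.24, Ctss with 0.23 and Laptm5 with 0.22. Cst3 encodes the protease inhibitor cystatin C, and Ctsd and Ctss encode lysosomal cathepsins. For C3ar1 the closest genes were Ctsb (0.11), Cd63 (0.11), Slc25a5 (0.09), Trim30a (0.09) and Ctsz (0.08), which are weak values.

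C1q was also present in cells that carried markers beyond the microglial ones. The 41 cells with at least 5 UMIs of MHC class II genes had means of 3.80 C1qa, 7.07 C1qb and 5.80 C1qc UMIs per thinned cell, against 4.05, 7.56 and 7.10 in the other cells. C3ar1 had a mean of 0.683 UMIs in the MHC class II cells and 0.468 in the others. The 19 cells with border-associated macrophage markers had a mean of 1.21 C3ar1 UMIs, and the 15 cells with monocyte markers had 4.33 C1qc UMIs. These groups are small, cells were pooled over replicates and no test was made.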

How the data were processed

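Per the study's methods and processing notes, the authors ran snakePipes, in which Cutadapt removed barcodes, STAR aligned the reads to mouse GRCm38/mm10 and featureCounts assigned them to genes. The deposited table of each plate holds estimated counts, in which the UMIs seen for a gene in a well were corrected for tags drawn repeatedly from the 4096 possible ones, without normalization. Each value gave back a whole UMI number (100% of values, within 0.001). Diet, length and replicate identifier came from the table of wells. Estimated counts were summed per replicate, length and plate, rounded, and tested in R 4.3.3 with the quasi-likelihood method of edgeR 4.0.16 after TMM scaling and filterByExpr. Adjusted p-values (Benjamini-Hochberg) under 0.05 were called. DESeq2 1.42.0 and limma 3.58.1 (voom with duplicateCorrelation) were alternatives. Shares and correlations used UMIs thinned to 1500 per cell (python 3.11.15, numpy 2.4.6, scipy 1.17.1, pandas 2.3.3). No doublet caller was run, because wells were sorted singly.

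Cells labelled 7 days were taken as 1 week, and 1 NC identifier on plate 1 covers cells whose names carry different weeks. Plate 5 held no NC cells at this depth, and 1 sum of 4 cells on plate 13 was left out. Exact binomial intervals and limits for counts of 0 (3 counts of the total) cover counting error only. The fits and the noise correction were tested on simulated data. Named genes were the 5 members, the other complement genes that passed the filter, the 5 genes most like C1q and like C3ar1 between cells, and the genes of the reference pairs, of which some are not reported here. Genes named on plate 12 were chosen after their values were seen. The members and lists were chosen with earlier results of these data known. Alternatives were the tool, the plate term, the filters on genes and cells, the scaling, the unit of the sums, the plates and replicates in the fit, and thinning.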

Additional observations from a re-analysis of the deposited data

Results flagged for a closer look

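A sum was set apart where its gap to the nearest other sum of its length exceeded Dixon's 95% critical value. The rule covers groups of 4 to 10 sums, so the 28 NC sums were not tested. Such a gap was found for 14 of 51 groups tested, where chance gives about 1 in 20. For most of them the other sums were tied at 0 or 100%, so that any single differing cell sufficed. By level, C1qb at 1 week was 7650 CPM (counts per 1000000) in M23 on plate 5, against 4808 to 5787 in the others. C3 was 91.8 in L4 on plate 3 at 16 weeks (others 0 to 26.8), 25.3 in M22 on plate 4 at 1 week (others 0), 10.3 in M24 on plate 4 at 3 days (others 0) and 196 in M21 on plate 5 at 4 weeks (others 0 to 14.7). The M21 value came from the cell with 867 neutrophil-marker UMIs.

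By share of thinned cells with a UMI, where the other sums were at 100%, C1qa was 96.0% in M8 on plate 6 at 1 day and 96.0% in M25 on plate 4 at 3 days. C1qb was 98.5% in L4 on plate 2 at 16 weeks and 92.9% in M7 on plate 12 at 9 weeks. C1qc was 97.0% in L4 on plate 2 at 16 weeks, 96.2% in M14 on plate 8 at 1 day, 95.5% in M4 on plate 9 at 1 week and 93.8% in M25 on plate 5 at 3 days. C3 was 5.97% in L4 on plate 3 at 16 weeks, where the other sums were at 0.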

How the results depend on the processing

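No member was called by level or by share under any alternative, with adjusted p of at least 0.499 for levels at single lengths, 0.384 for levels over all lengths together and 0.133 for shares. Of 312 level values over 13 alternatives, 54 changed sign and 18 of these moved by over 1 SE. Leaving out each of 44 replicates in turn changed the sign of 53 of 1056 values, and 6 moved by over 1 SE. C3 was too low for the fit, and C3ar1 rested on 5 to 70 UMIs per sum. Most of the share tests could not pass with these replicates. The cause of these shifts was not tested.

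Log2 fold changes that changed sign and moved by over 1 SE were as follows. Without the plate as a term, C1qb had -0.19 at 1 day and 0.17 at 3 days, C1qc 0.14 at 3 days and 0.11 at 1 week, and C3ar1 0.21 at 3 days, 0.23 at 1 week and 0.32 at 4 weeks. Without the filter on low counts, which moved the median of all genes to 0.22 at 3 days and 0.090 at 1 week, C1qb had 0.24 and C1qc 0.21 at 3 days, and C1qc 0.11 at 1 week. With sums over linked plates C1qc had 0.059 at 3 days, without cells carrying markers of other types C1qb had 0.053 at 4 weeks, and without plate 12 C1qc had 0.14 at 9 weeks. Without plates 4 and 5, C1qb had 0.12 and C1qc 0.29 at 3 days, C3ar1 0.13 at 1 week and C1qa -0.33 at 4 weeks. With 1 fit per length C1qa had -0.091 at 4 weeks. With 1 replicate left out, C1qa ran from -0.14 to 0.026 at 16 weeks and from -0.22 to 0.23 at 9 weeks, C1qc from -0.11 to 0.10 at 9 weeks, and C3ar1 from -0.42 to 0.21 at 4 weeks and from -0.24 to 0.24 at 9 weeks.

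Of the values that kept their sign but moved by over 1 SE, C1qb at 1 week had 0.13 without the plate term and 0.14 without the filter, and C3ar1 at 3 days -0.63 with 1 fit per length.

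Differences in share that changed sign and moved beyond the spread between replicates, in points, were as follows. Without thinning, C3ar1 had -10.9 at 3 days and -3.95 at 4 weeks. With at least 2 UMIs, C1qa had 9.91 and C3ar1 -9.36 at 3 days, and C3ar1 -4.81 at 4 weeks. With a minimum of 1000 transcripts, C1qb had 2.10 at 1 day and 0.860 at 9 weeks, C1qc 2.35 at 1 day and -2.08 at 3 days, C3 0.893 at 3 days and C3ar1 -7.31 at 3 days. Without plates 4 and 5, C1qc had 1.37 and C3 -1.37 at 4 weeks, and C3ar1 -17.2 at 3 days.

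Over all genes, 0 were called at each length. DESeq2 called 1 at 9 weeks. Without the plate term 3, 29, 16, 23 and 1 were called at 1 day, 3 days, 1 week, 4 weeks and 16 weeks, and 59 over all lengths together. Without the filter 6, 6, 12, 4 and 4 were called at 3 days to 16 weeks, and 30 together. Linked plates gave 1 at 3 days, 7 at 4 weeks, 1 at 16 weeks and 5 together. The fit with duplicateCorrelation (correlation 0.03) gave 1 at 1 week, 1 at 16 weeks and 4 together. Without cells carrying other markers 1 was called at 9 weeks. Without plates 4 and 5, 1, 9, 2 and 2 were called at 3 days, 1 week, 4 weeks and 16 weeks, and 13 together. With 1 fit per length 3 were called at 1 week and 1 at 9 weeks. With 1 replicate left out, 0 to 1 were called at 1 week, 0 to 4 at 4 weeks, 0 to 1 at 16 weeks and 0 to 6 together. Without thinning, the correlation of C1qa and C1qc was 0.38, and the other co-variation values moved by less than their SD between plates. For corrected values that SD was wide, since some plates gave values over 1, so this does not show that they were stable. Thinned to 1000 UMIs without mitochondrial transcripts, Gm10717 and Gm21738, the highest corrected value of the reference pairs was 0.65 in place of 0.56.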
